A study of Mus musculus with 6 samples.

Results

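The fibrillar collagens are the rod-shaped proteins that form the banded fibrils of connective tissue. The 10 genes described here (Col1a1, Col1a2, Col2a1, Col3a1, Col5a1, Col5a2, Col5a3, Col11a1, Col24a1 and Col27a1) were chosen by family membership out of 49671 genes in the count tables. All 10 were found by Ensembl identifier in the GENCODE M21 annotation of the mouse genome build GRCm38. They were measured by RNA sequencing in 2 fractions of cells sorted from mouse pancreatic tumours, with 3 libraries each of the GFP fraction and of the Tomato fraction. The hosts were C57BL/6J mice that carried the Rosa-mTmG reporter, which turns a cell from Tomato red to GFP green once Cre has acted in it or in its ancestors, and a Cre gene under the Fabp4 promoter. At 8 weeks of age they received FC1199 cells, a mouse pancreatic cancer line, in the pancreas. The tumours grew untreated for 4 weeks, so the hosts were 12 weeks old at harvest. All cells of both fractions were first sorted for Podoplanin, a surface protein of fibroblasts, lymphatic endothelium and mesothelium. Per the labels, GFP cells are cancer-associated fibroblasts (CAFs) descended from pancreatic stellate cells and Tomato cells are CAFs of another origin. What the Fabp4 promoter marked is therefore a lineage, read out at harvest by a permanent label, and not cells that express Fabp4 at that time.

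Fibrillar collagens are made as procollagen chains that fold in threes in the endoplasmic reticulum, are secreted, lose their propeptides and assemble side by side into fibrils that lysyl oxidases cross-link. Collagen I (a pair of Col1a1 chains with a Col1a2 chain) and collagen III (Col3a1 chains alone) make up the bulk of fibrils in soft tissue and in the dense stroma of pancreatic cancer. Collagens V and XI (Col5a1, Col5a2, Col5a3, Col11a1) are minor chains that start fibrils and limit their width, collagen II (Col2a1) is the fibril of cartilage, and collagens XXIV (Col24a1) and XXVII (Col27a1) are later described members with shorter helices.

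Libraries held between 33378377 and 42154933 counts. Fibroblast genes were abundant in both fractions: a list of 15 fibroblast markers summed to between 24648 and 28734 CPM in GFP libraries and to between 17848 and 24467 CPM in Tomato libraries. CPM are counts normalised to library depth with TMM scaling, which sets libraries to a common level by the bulk of their genes. The gate and driver genes did not pass the test: Pdpn, which encodes Podoplanin, had a log2 fold change of -0.10 (adjusted p = 0.481) and Fabp4 one of -0.09 (adjusted p = 0.551). Markers of other cells were present and differed. Mesothelial markers (12 genes, 11 lower in GFP and none higher) summed to between 190 and 248 CPM in GFP and to between 2103 and 2435 CPM in Tomato. Macrophage markers (16 genes, all lower in GFP) summed to between 551 and 640 CPM in GFP and to between 1775 and 3659 CPM in Tomato. Lymphatic endothelial markers (7 genes, 6 tested and all 6 higher in GFP, with Ccl21a at 0 counts in every library) summed to between 333 and 536 CPM in GFP and to between 25.0 and 83.8 CPM in Tomato. Epithelial and cancer cell markers (12 genes, 7 of 11 tested lower in GFP) summed to between 119 and 150 CPM in GFP and to between 588 and 729 CPM in Tomato. The largest Tomato means in that list were of keratin genes: Krt19 (173 CPM), Krt8 (171), Krt18 (133) and Krt7 (82.1). Epcam and Cdh1 had Tomato means of 12.3 and 11.9 CPM. Krt19 is also on the mesothelial list, so the sums of these lists are not independent. Of 12 endothelial markers, most of which lymphatic endothelium also expresses, 8 were higher in GFP and none lower. These 8 were Pecam1, Cdh5, Tie1, Egfl7, Cldn5, Emcn, Plvap and Sox18. The 4 that did not pass were Vwf (log2 fold change 0.05, adjusted p = 0.936), Kdr (-0.39, adjusted p = 0.151), Tek (0.80, adjusted p = 0.182) and Erg (0.74, adjusted p = 0.0993). Of 7 neutrophil markers none was higher and 5 were lower, and of 11 pericyte and smooth muscle markers 3 were higher and 1 lower. None of 10 acinar markers passed in either direction. Beside these counts, 13.1% of all 15608 genes tested were higher in GFP and 15.7% lower, at an adjusted p under 0.05.

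The promoters of members that rose together can be set beside that of the gene that did not pass. RefSeq promoter sequences of build GRCm38.p6 were matched by symbol for 7 of the 10 genes. Col1a1, Col2a1 and Col5a2 were not among them. The 250 bases before the RefSeq start are shown for Col1a2, Col3a1 and Col5a1, chosen as abundant chains of collagens I, III and V, and for Col24a1. Capitals mark matches on either strand to 3 short motifs. The first is the CCAAT box, searched by those 5 letters. Another is a TATA box, searched as TATAAA. The last is a GC box, a binding motif of Sp1-type factors, searched as GGGCGG. In the windows shown, no match overlapped another. The sequences run 5′ to 3′ on the plus strand, which is the strand of all 4 genes. The RefSeq start of Col1a2 lies inside the gene as GENCODE M21 annotates it, downstream of the start given there, and so does that of Col27a1.
Col1a2, chr6:4505368-4505617: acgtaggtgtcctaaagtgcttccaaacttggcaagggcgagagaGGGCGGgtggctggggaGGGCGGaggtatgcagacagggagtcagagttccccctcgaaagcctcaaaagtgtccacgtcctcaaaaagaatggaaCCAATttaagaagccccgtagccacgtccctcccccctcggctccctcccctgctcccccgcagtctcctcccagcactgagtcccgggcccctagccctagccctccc
Col3a1, chr1:45311288-45311537: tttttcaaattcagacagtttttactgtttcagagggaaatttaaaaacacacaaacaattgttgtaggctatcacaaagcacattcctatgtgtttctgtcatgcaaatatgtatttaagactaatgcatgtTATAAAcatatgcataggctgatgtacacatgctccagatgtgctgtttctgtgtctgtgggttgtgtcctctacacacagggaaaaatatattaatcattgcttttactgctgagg
Col5a1, chr2:27886175-27886424: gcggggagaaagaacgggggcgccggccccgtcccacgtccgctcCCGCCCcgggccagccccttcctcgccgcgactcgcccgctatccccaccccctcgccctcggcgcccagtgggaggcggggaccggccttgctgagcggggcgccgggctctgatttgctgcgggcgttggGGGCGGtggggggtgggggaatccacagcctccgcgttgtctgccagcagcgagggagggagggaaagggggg
Col24a1, chr3:145292222-145292471: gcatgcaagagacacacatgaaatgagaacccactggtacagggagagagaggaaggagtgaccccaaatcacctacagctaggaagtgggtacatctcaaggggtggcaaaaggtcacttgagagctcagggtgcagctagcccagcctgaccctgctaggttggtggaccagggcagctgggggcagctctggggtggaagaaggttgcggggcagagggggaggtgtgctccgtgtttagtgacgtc

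The windows differed in base composition and in the motifs they held. G and C made up 76.4% of the Col5a1 window, 62.0% of that of Col1a2, 58.0% of that of Col24a1 and 35.2% of that of Col3a1, where the median of all 32851 windows in the table was 52.4%. The Col1a2 window held a CCAAT match starting 109 bases before the start site and 2 GC boxes, at 205 and 188 bases. The Col3a1 window held a TATAAA match at 117 bases and no GC box, and that of Col5a1 held 2 GC boxes, at 205 and 73 bases. Among the other members with a sequence, Col5a3 had a CCAAT match at 122 bases and 2 GC boxes, Col11a1 had a CCAAT match at 79 bases and 2 GC boxes, and Col27a1 had 1 GC box. No match to any of the 3 motifs lay in the Col24a1 window. Of all windows, 33.8% held CCAAT, 32.7% a GC box and 12.4% TATAAA, and the GC box lay in 5 of the 6 windows of genes that rose, all but that of Col3a1. Any link between these motifs and the rise was not tested. The Sp1 gene itself did not pass (log2 fold change 0.21, adjusted p = 0.207).

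Of the 10 genes, 9 passed the filter on low counts, and 8 of those 9 were higher in GFP and none lower (edgeR, adjusted p under 0.05 over 15608 genes). Of all genes tested, 13.1% were higher in GFP and 15.7% lower. That background depended on the fit: of 2049 higher and 2456 lower genes, the replicate block made 3137 and 3256, and the counts were 920 and 1380 without GFP replicate 1, 1195 and 1551 without GFP replicate 3, and 833 and 1528 without Tomato replicate 2. The median log2 fold change (GFP over Tomato) of the 9 genes was 0.94, against 0.00 over all genes tested. The 3 GFP libraries lay above all 3 Tomato libraries for 8 of the 9 genes, and for 23.4% of all genes tested. In either direction, the libraries of the fractions did not overlap for 48.6% of all genes tested. In a bulk sample, fewer fibroblasts and less collagen RNA per fibroblast cannot be told apart. Summed, the 10 genes took 12.5%, 11.2% and 12.2% of all counts in the GFP libraries, and 8.62%, 7.12% and 6.01% in the Tomato libraries. The fractions did not overlap in this share, and the exact permutation test over libraries gave p = 0.1, two-sided, the smallest that 3 against 3 allow. The plot of each gene by library shows the GFP libraries above the Tomato libraries for every gene tested except Col24a1.

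**Figure D1:**
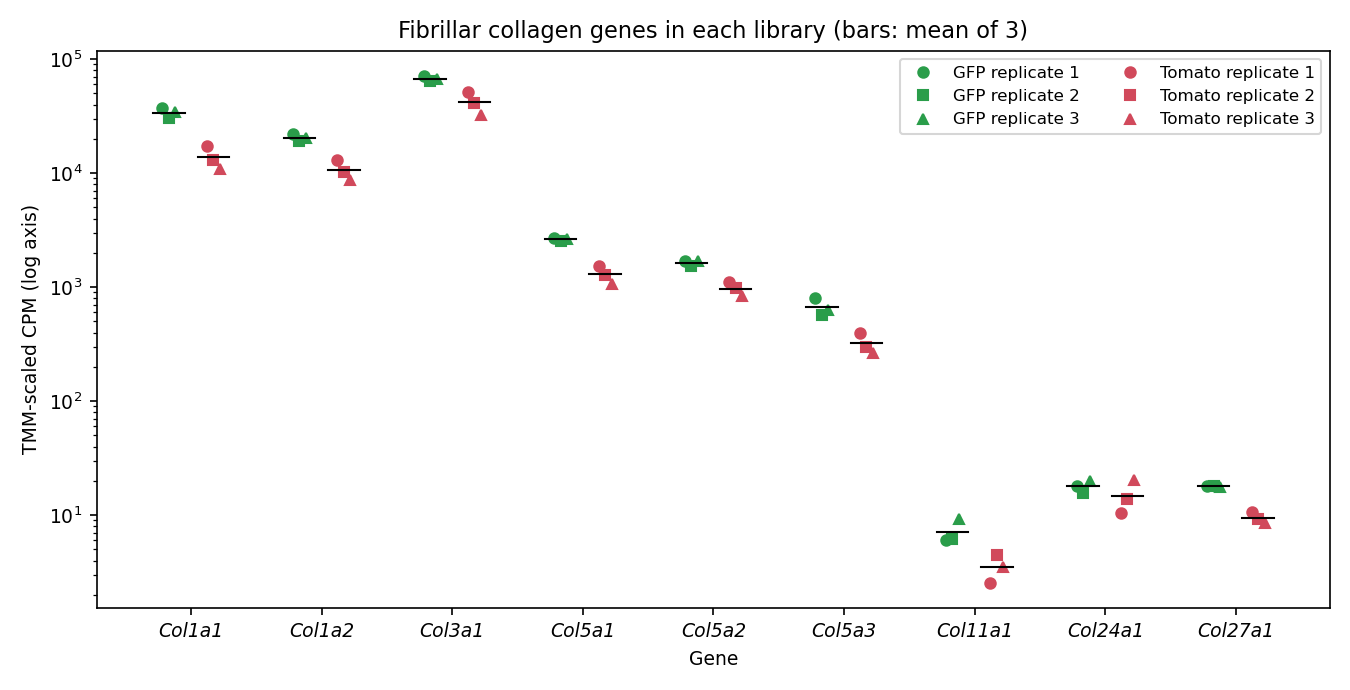
TMM-scaled CPM of 9 fibrillar collagen genes in each library on a log axis, with GFP (green, left) and Tomato (red, right) and a bar at the mean of 3 libraries. The GFP libraries stand above the Tomato libraries for each gene except Col24a1; Col2a1, with 0 to 2 counts per library, is not drawn.

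Both collagen I genes rose, and Col1a1 had the highest log2 fold change of the 9 genes. Col1a1 (chromosome 11, 94936224 to 94953042, plus strand, 52 merged exons) encodes the chain present as a pair in collagen I, and it had 37073, 30532 and 34312 CPM in the GFP libraries and 17421, 12964 and 10980 CPM in the Tomato libraries. Its log2 fold change was 1.30 ± 0.21 (SE, adjusted p = 0.00321), a 2.46-fold difference. Col1a2 (chromosome 6, 4504814 to 4541544, plus strand) encodes the other chain, and it had 22250, 19194 and 20155 CPM in the GFP libraries and 12978, 10322 and 8768 CPM in the Tomato libraries. The lowest GFP library stood well clear of the highest Tomato library for both chains. The log2 fold change of Col1a2 was 0.94 ± 0.18 (adjusted p = 0.0076).

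Collagen III was the most abundant and moved least among the genes past the threshold. Col3a1 (chromosome 1, 45311538 to 45349706, plus strand) had 71047, 64470 and 67211 CPM in the GFP libraries and 51282, 41438 and 32506 CPM in the Tomato libraries. The GFP libraries were close together, and the Tomato libraries spread more, with the highest nearest to GFP. Its log2 fold change was 0.70 ± 0.21 (adjusted p = 0.0375). This call was lost without any single library other than Tomato replicate 1, with an adjusted p of 0.12, 0.0795 and 0.0903 without GFP replicates 1, 2 and 3, and of 0.133 and 0.052 without Tomato replicates 2 and 3. Offsets for length and GC content also ended it (0.47, adjusted p = 0.0978), though not when the replicate block was added to those offsets (0.49, adjusted p = 0.0363).

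All 3 collagen V genes rose. Col5a1 (chromosome 2, 27886425 to 28039514, plus strand) encodes the chain that most collagen V molecules need, and it had 2697, 2554 and 2634 CPM in the GFP libraries and 1543, 1285 and 1067 CPM in the Tomato libraries. Its GFP libraries were nearly alike, and its log2 fold change was 1.02 ± 0.15 (adjusted p = 0.00224). Annotated genes of the opposite strand, 2810430I11Rik and Gm13372, share 99 and 113 exon bases with it. The counts for both strands together held 92.6% to 93.5% of the sum of the strand columns in the 6 libraries, and with either strand column the log2 fold change was 1.01. Col5a2 (chromosome 1, 45374321 to 45503282, minus strand), the partner chain of Col5a1, had 1686, 1534 and 1690 CPM in the GFP libraries and 1101, 984 and 834 CPM in the Tomato libraries. The fractions did not overlap, and the log2 fold change of Col5a2 was 0.75 ± 0.13 (adjusted p = 0.00479). Col5a2 lies 24.6 kb from Col3a1, end to end with it on the opposite strand and with no protein-coding gene between them. Of the 8 genes past the threshold these neighbours had the smallest log2 fold changes with TMM scaling, but with length and GC offsets Col27a1 (0.51) was below Col5a2 (0.55), and without Tomato replicate 1 Col11a1 (0.83) was below both. Col5a3 (chromosome 9, 20770050 to 20815067, minus strand), a chain of limited tissue range, had 800, 570 and 627 CPM in the GFP libraries and 398, 300 and 265 CPM in the Tomato libraries (1.05 ± 0.18, adjusted p = 0.00457).

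Of the genes of low level, 2 rose and 1 did not pass. Col27a1 (chromosome 4, 63214004 to 63334991, plus strand), a chain found mainly in cartilage and a range of developing tissues, had 18.0, 18.2 and 17.5 CPM in the GFP libraries and 10.6, 9.34 and 8.61 CPM in the Tomato libraries. Its libraries agreed closely within each fraction, and its log2 fold change was 0.91 ± 0.11 (adjusted p = 0.00109). Col11a1 (chromosome 3, 114030540 to 114220718, plus strand), a fibril-starting chain of cartilage that is also known as a marker of CAFs in human tumours, had 6.03, 6.21 and 9.27 CPM in the GFP libraries and 2.57, 4.48 and 3.53 CPM in the Tomato libraries. It rested on 110 to 329 counts per library. GFP replicate 3 stood above the other GFP libraries, and the log2 fold change of Col11a1 was 1.03 ± 0.25 (adjusted p = 0.0181). Its call was lost without GFP replicate 3 (0.80, adjusted p = 0.0611) and after the length and GC correction (0.77, adjusted p = 0.071). With the replicate block added to that correction, Col11a1 passed (0.78, adjusted p = 0.011).

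Col24a1 (chromosome 3, 145292472 to 145552011, plus strand), a chain known from developing bone and cornea in mice, had 17.9, 15.7 and 20.01 CPM in the GFP libraries and 10.5, 13.9 and 20.2 CPM in the Tomato libraries. Its highest library was Tomato replicate 3, so the fractions overlapped, and it did not pass (0.27 ± 0.22, adjusted p = 0.389). Without Tomato replicate 3 it passed as higher in GFP (0.54, adjusted p = 0.0386). Scaled to the fibroblast marker list its log2 fold change was below 0 (-0.11, adjusted p = 0.794). Col2a1 (chromosome 15, 97975602 to 98004695, minus strand), the chain of cartilage, had 1 count in each GFP library and 2, 0 and 0 counts in the Tomato libraries, and it did not pass the filter. All 6 values were below the 3 counts that a count of 0 allows, so no fold change is given. The cartilage genes Col9a1, Snorc, Cytl1 and Ucma, from a list of 15, were at 0 counts in all libraries.

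**Figure D2:**
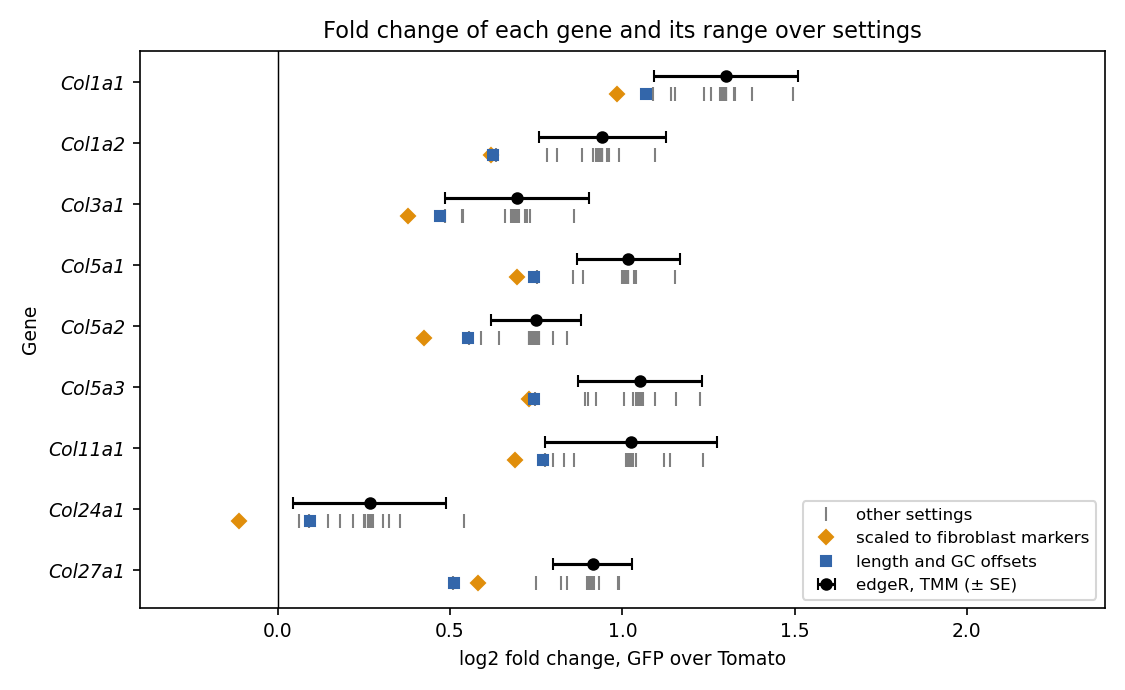
Log2 fold change (GFP over Tomato) of 9 fibrillar collagen genes: black points with bars are the edgeR values ± SE, orange diamonds the values scaled to fibroblast markers, blue squares those with length and GC offsets, and grey ticks other settings, each library left out in turn among them. All values of 8 genes lie above 0, from 0.38 to 1.496, and those of Col24a1 lie from -0.11 to 0.54.

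The size of the differences followed how libraries were set to a common level, and their direction did not, except for Col24a1. Because markers of other cells differed between the fractions, the fit was repeated with each library scaled to the geometric mean of the 15 fibroblast markers, which include no collagen. Of those markers 7 were higher in GFP and 1 lower before rescaling. With that scaling 7 of the 9 genes were higher in GFP and none lower, Col11a1 no longer passed (0.69, adjusted p = 0.0845), and the median of the 9 genes was 0.62 where that of all genes was -0.34. Col1a1 was then at 0.98 (adjusted p = 0.000548) and Col3a1 at 0.38 (adjusted p = 0.0371). With library size as the only scaling 8 were higher, at a median of 0.78 against -0.16 for all genes. The calls over all genes moved further: 2049 were higher and 2456 lower with TMM scaling, 1128 and 3851 with library size alone, and 486 and 4692 with fibroblast scaling. Offsets for length and GC content left 6 of the 9 genes higher, at a median of 0.62. These genes have long transcripts, and such offsets remove whatever part of a GFP to Tomato difference runs with length or GC content.

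Some marker lists followed the collagen level among the Tomato libraries, in either direction, and others did not. Tomato replicate 3, with the highest summed macrophage markers (3659 CPM), had the lowest summed fibrillar collagen (54452 CPM). Tomato replicate 1, with the lowest macrophage sum of the 3 (1775 CPM), had the highest (84747 CPM), and Tomato replicate 2 stood between them in both (2664 and 67320 CPM). The summed fibroblast markers were 24467, 22585 and 17848 CPM in Tomato replicates 1, 2 and 3, so they too were lowest in replicate 3. Summed lymphatic endothelial markers ran the same way as collagen (83.8, 52.4 and 25.0 CPM in Tomato replicates 1, 2 and 3), and epithelial and cancer markers the same way as macrophage markers (588, 658 and 729 CPM). Pericyte and smooth muscle markers also rose from Tomato replicate 1 to 3 (536, 685 and 829 CPM). Mesothelial markers (2222, 2435 and 2103 CPM) and acinar markers (498, 1008 and 539 CPM) followed neither order. The GFP libraries had macrophage sums of 551, 640 and 582 CPM and collagen sums of 135595, 118894 and 126676 CPM, again in opposite order. Acinar sums in GFP (151, 539 and 356 CPM) also ran opposite to collagen, and mesothelial sums (190, 234 and 248 CPM) did not follow it. Their fibroblast sums were 27834, 28734 and 24648 CPM, highest in replicate 2, where collagen was lowest. Lymphatic endothelial (536, 378 and 333 CPM), epithelial and cancer (119, 120 and 150 CPM) and pericyte and smooth muscle sums (513, 623 and 833 CPM) did not follow collagen in GFP. The part of these other cells in the collagen difference was not tested. For the 8 genes whose GFP libraries all lay above the Tomato libraries, pairs of equal number could only agree, in 3 of 3. For Col24a1 the GFP library was higher than the Tomato library of its number in 2 of 3 pairs.

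**Figure D3:**
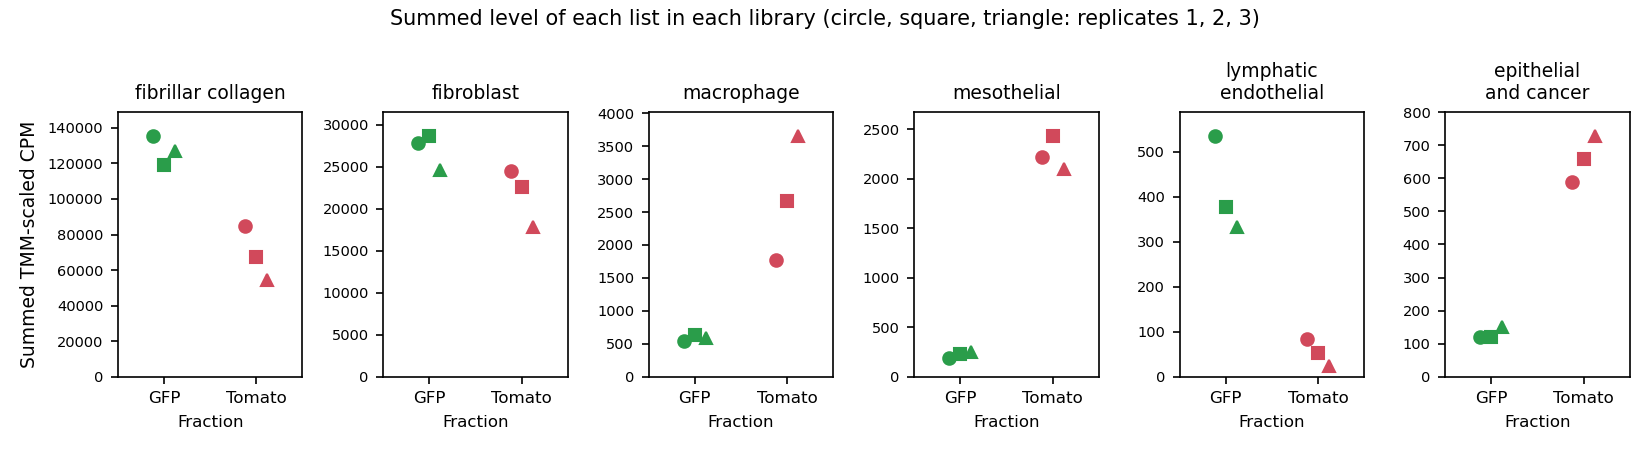
Summed TMM-scaled CPM of the 10 fibrillar collagen genes and of 5 marker lists in each library, with GFP left, Tomato right and the replicate shown by the symbol. Fibrillar collagen sums lie between 118894 and 135595 CPM in GFP and between 54452 and 84747 CPM in Tomato, while macrophage sums lie between 551 and 640 CPM in GFP and between 1775 and 3659 CPM in Tomato.

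Ratios between chains within a library do not depend on scaling between libraries. Of 5 ratios compared, 4 separated the fractions without overlap, none at a p that 3 against 3 libraries could bring under 0.05. These ratios share genes, so they are not independent. Levels of single genes did not overlap between the fractions, in either direction, for 48.6% of all genes tested. There were 1.67, 1.59 and 1.70 Col1a1 counts per Col1a2 count in the GFP libraries, and 1.34, 1.26 and 1.25 in the Tomato libraries. The difference of the log2 ratio was 0.37. Col3a1 counts per Col1a1 count were 1.92, 2.11 and 1.96 in the GFP libraries and 2.94, 3.20 and 2.96 in the Tomato libraries, a difference of -0.60 on the log2 scale. Collagen III transcripts were thus fewer relative to collagen I in every GFP library than in any Tomato library. Col5a1 counts per Col5a2 count were 1.60, 1.66 and 1.56 in the GFP libraries and 1.40, 1.31 and 1.28 in the Tomato libraries (log2 difference 0.28). Col5a1 counts per Col1a1 count were 0.0728, 0.0836 and 0.0768 in the GFP libraries and 0.0886, 0.0991 and 0.0972 in the Tomato libraries (log2 difference -0.29).

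Each of those 4 ratios had p = 0.1 in the two-sided exact permutation test over libraries, the smallest that 3 against 3 allow, and 0.125 adjusted over the 5 ratios compared, so none could pass 0.05. The fifth, Col11a1 to Col5a1, overlapped between the fractions (log2 ratio -8.55 ± 0.35 in GFP and -8.55 ± 0.60 in Tomato, SD, n = 3 each; exact permutation p = 1). In the fit with length and GC offsets the differences of the fitted log2 fold changes were 0.45 for Col1a1 and Col1a2, -0.60 for Col3a1 and Col1a1, 0.19 for Col5a1 and Col5a2, and -0.32 for Col5a1 and Col1a1.

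**Figure D4:**
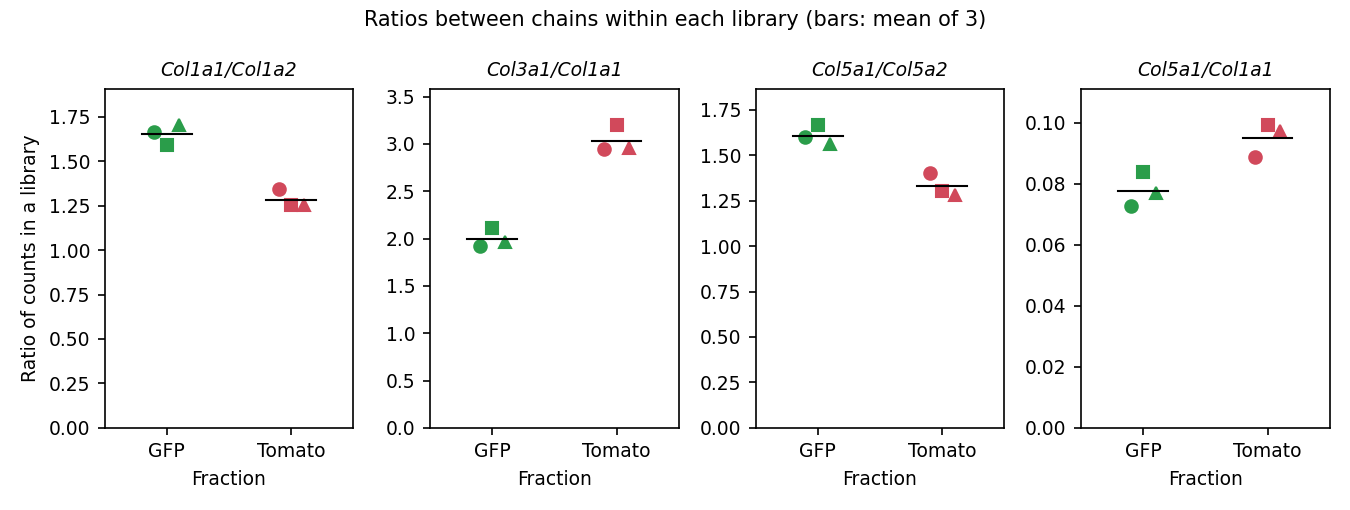
Ratio of the counts of 2 chains within each library for 4 pairs of genes, with GFP (green, left), Tomato (red, right), axes from 0 and a bar at the mean of 3 libraries. Col1a1 to Col1a2 lies between 1.59 and 1.70 in GFP and between 1.25 and 1.34 in Tomato, and Col3a1 to Col1a1 lies between 1.92 and 2.11 in GFP and between 2.94 and 3.20 in Tomato.

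Shares of the summed fibrillar collagen counts separated the fractions for Col1a1, Col3a1 and Col5a1. Col3a1 took 53.2% ± 0.93 of the summed counts of the 10 genes in GFP and 60.6% ± 0.93 in Tomato (SD, n = 3 each), and Col1a1 took 26.7% ± 0.89 in GFP and 19.99% ± 0.67 in Tomato. Col1a2 took 16.2% ± 0.25 in GFP and 15.6% ± 0.45 in Tomato, with overlap between the fractions. Col5a1 took 2.07% ± 0.080 in GFP and 1.90% ± 0.070 in Tomato, Col5a2 took 1.29% ± 0.045 and 1.43% ± 0.12, and Col5a3 took 0.522% ± 0.060 and 0.468% ± 0.020, in the same order of fractions. The fractions overlapped for Col5a2 and Col5a3. Col11a1, Col24a1 and Col27a1 each took under 0.04% in any library.

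Levels of different genes are compared per kilobase of transcript. Per kilobase of merged exons, Col3a1 had the highest level, 6884 ± 337 CPM per kb in GFP and 4252 ± 957 in Tomato (SD, n = 3 each), followed by Col1a1 with 5176 ± 500 in GFP and 2101 ± 503 in Tomato. Col1a2 had 1652 ± 126 in GFP and 860 ± 171 in Tomato. Below these chains of the main fibrils came the collagen V genes, with Col5a1 at 310 ± 8.48 CPM per kb in GFP and 153 ± 28.1 in Tomato, Col5a2 at 171 ± 9.26 and 101 ± 14.0, and Col5a3 at 97.8 ± 17.6 and 47.2 ± 10.1. The next gene, Col24a1, was lower by more than an order of magnitude (2.34 ± 0.28 in GFP, 1.95 ± 0.64 in Tomato), and Col27a1 (1.38 ± 0.027 in GFP, 0.73 ± 0.076 in Tomato) and Col11a1 (0.56 ± 0.14 in GFP, 0.28 ± 0.075 in Tomato) closed the order of detected genes. The order was the same in both fractions, and no neighbours in it overlapped over libraries.

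Which length is used changed some of those steps. The merged exons of Col1a2 cover 12.4 kb and its longest transcript 5.35 kb, while those of Col1a1 cover 6.56 kb and 5.93 kb. Per kilobase of the longest transcript, the mean level of Col1a1 was 5729 CPM in GFP libraries and 2325 in Tomato libraries, and that of Col1a2 3839 CPM in GFP libraries and 1999 in Tomato libraries. On this measure their libraries overlapped in Tomato and not in GFP. The levels of Col5a1 and Col5a2 overlapped in Tomato, and those of Col24a1 and Col27a1 in GFP. Per kilobase of the longest transcript, the level of Col1a1 was 1.49 times that of Col1a2 in GFP and 1.16 times in Tomato. Per kilobase of merged exons it was 3.13 times in GFP and 2.43 times in Tomato.

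The genes that make, process and bind these collagens were described by lists. Of 20 genes of procollagen folding and modification in the endoplasmic reticulum, 12 were higher in GFP and none lower, led by P3h3, of the prolyl hydroxylase family (log2 fold change 0.71 ± 0.088, adjusted p = 0.00105). Of 10 genes of procollagen export 3 were higher and 1 lower, led by Mia3, which encodes the protein TANGO1 that loads procollagen into transport carriers (0.73, adjusted p = 0.00528). The lower gene was Sar1b, a GTPase gene of those carriers (-0.35, adjusted p = 0.0394), which was lost after the length and GC correction (-0.02, adjusted p = 0.847) and in 4 of 6 leave-one-out fits. Of 7 genes tested of propeptide cleavage 4 were higher, led by the procollagen N-proteinase gene Adamts14 (0.78, adjusted p = 0.00248). Tll1, a gene related to the C-proteinase gene Bmp1, was lower (-1.02, adjusted p = 0.0216), a call lost in 3 of 6 leave-one-out fits. Of 5 lysyl oxidase genes, whose enzymes cross-link fibrils, 4 were higher and none lower, led by Loxl2 (0.62, adjusted p = 0.00524).

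On the fibril side, 13 of 22 genes of fibril surface and assembly were higher and 1 lower, led by Col12a1 (0.92, adjusted p = 0.000704), which encodes a collagen on fibril surfaces, and the lower gene was Tgfbi (-2.83, adjusted p = 0.00224), which binds collagens and is also made by macrophages. Of 9 collagen receptor genes tested, 3 were higher, led by Mrc2, the receptor that takes up collagen fragments (0.98, adjusted p = 0.00165), and 2 lower, led by Lair1, a receptor of white blood cells (-3.15, adjusted p = 0.000976). Gp6, a platelet receptor gene, was at 0 counts in all libraries. Of 10 genes of fibrillar collagen breakdown and its inhibition 3 were higher, led by Mmp14, a membrane-bound collagenase gene (0.55, adjusted p = 0.00591). The list includes the inhibitor genes Timp1, Timp2 and Timp3, none of which passed (adjusted p = 0.512, 0.901 and 0.598). The collagenase gene Mmp13 was lower (-0.55, adjusted p = 0.0324), a call lost in 5 of 6 leave-one-out fits and after the length and GC correction (-0.38, adjusted p = 0.175). Macrophage markers, given above, were lower in GFP along with Lair1 and Tgfbi.

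Of 29 other collagen genes tested 15 were higher and 1 lower, led again by Col12a1, which is on both lists, the lower gene being Col4a6 (-3.26, adjusted p = 0.00549), a basement membrane chain made by epithelia. Of 9 cartilage genes tested 2 were higher, led by Hapln1, a link protein gene (2.31, adjusted p = 0.0157, 1.08 CPM in GFP and 0.214 CPM in Tomato), and 1 lower, the transcription factor gene Sox6 (-3.23, adjusted p = 0.00036). The Hapln1 call was lost without GFP replicate 1 or Tomato replicate 2, at an adjusted p of up to 0.0621. Of 23 regulators of fibrillar collagen transcription 11 were higher and none lower, led by Runx2, a transcription factor gene of bone (0.78, adjusted p = 0.00459). The other 12 did not pass. This list was not split by whether a gene raises or lowers that transcription, so its count has no single meaning for collagen. Among all genes tested 13.1% were higher, so the shares of export (3 of 10), breakdown (3 of 10), receptor (3 of 9) and cartilage genes (2 of 9) were nearer to this background than that of cross-linking genes (4 of 5).

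**Figure D5:**
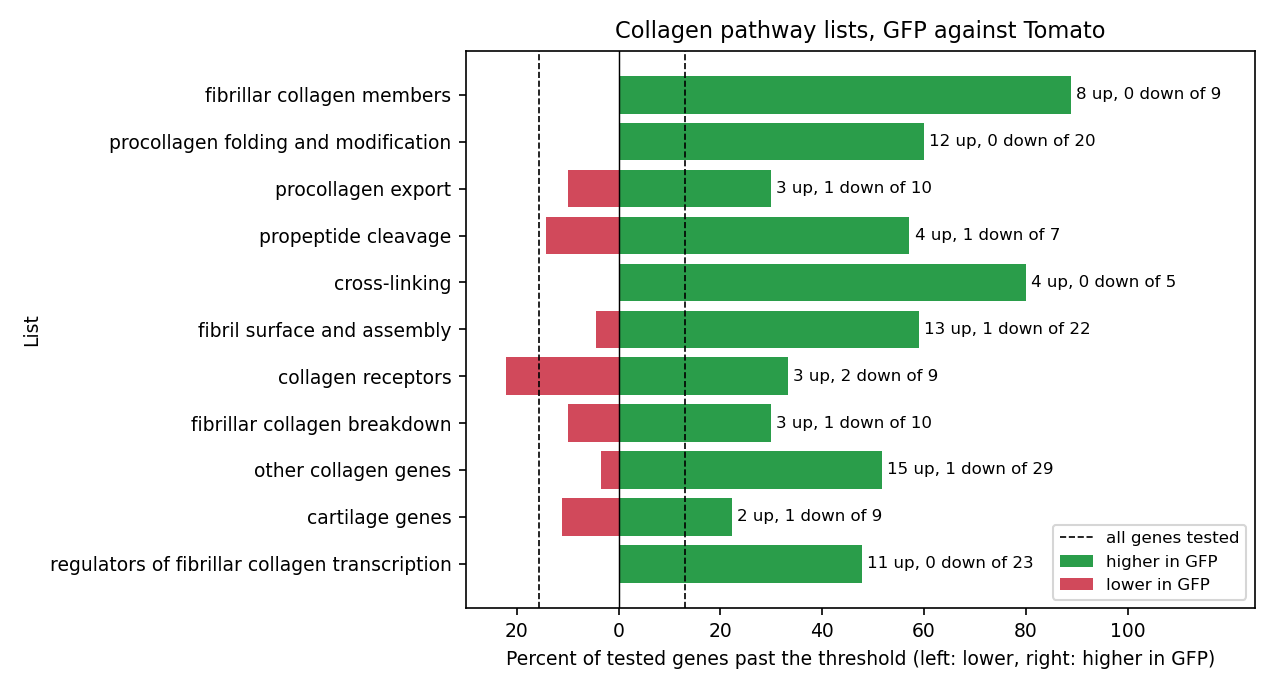
Percent of tested genes in each list that passed the threshold, with those higher in GFP to the right and those lower to the left, and dashed lines at 13.1% higher and 15.7% lower for all genes tested. Fibrillar collagen (8 of 9 higher) and cross-linking genes (4 of 5) have the longest bars to the right.

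The counts of these lists moved as single libraries were dropped, at a smaller n. Without GFP replicate 1, the genes higher were 1 for export, 2 for propeptide cleavage, 2 for cross-linking, 6 for fibril surface, none for cartilage genes and 5 for regulators. Without GFP replicate 2, they were 7 for regulators and 1 for cartilage genes. Without GFP replicate 3, they were 7 for folding, 1 for export, 2 for cross-linking, 8 for fibril surface, 1 for cartilage genes and 6 for regulators. Without Tomato replicate 2, they were 7 for folding, 1 for export, 2 for propeptide cleavage, 2 for cross-linking, 5 for fibril surface, none for cartilage genes and 5 for regulators. Without Tomato replicate 1 or 3, cartilage genes had 1. Scaled to the fibroblast markers, the genes higher were 1 for folding, 2 for propeptide cleavage, 8 for fibril surface, 3 for receptors, 1 for breakdown, 11 for other collagen genes, 1 for cartilage genes and none for export, cross-linking or regulators, and those lower were 2 each for export, fibril surface, receptors and breakdown, 1 each for the other lists and none for cross-linking. The scaling markers include Dcn and Lum of the fibril surface list and Mmp2 and Fap of the breakdown list. Counts of those lists are thus not independent of that scaling. P3h3, Mia3, Loxl2, Mmp14 and Runx2 lost their calls under that scaling, where 7 of the 9 fibrillar collagen genes were higher. The number of fibrillar collagen genes higher in GFP ranged from 6 to 8 over the fits that left out a library.

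The level of Col1a1 over the 6 libraries was followed closely, among 8904 other protein-coding genes with a mean of at least 10 CPM, by Prrc2b (Pearson r = 0.999), Sh2b3 (0.998), Zbtb7a (0.997) and Col15a1 (0.997). Col15a1 encodes a collagen of the basement membrane zone. These r rest largely on the gap between 2 groups of 3 libraries and are a description only. Among the fibrillar collagen genes, r with Col1a1 was 0.998 for Col1a2, 0.996 for Col5a1 and Col5a2, 0.988 for Col5a3, 0.986 for Col27a1, 0.977 for Col3a1, 0.75 for Col11a1 and 0.245 for Col24a1. With the mean of each fraction taken off, the closest genes were Mdm4, 4930523C07Rik, Fam120a, Bnc2 and Zzef1 (0.996 to 0.998), and r with Col1a1 was 0.991 for Col1a2, 0.964 for Col3a1, 0.957 for Col5a1, 0.956 for Col5a2, 0.937 for Col5a3 and 0.879 for Col27a1. It was -0.45 for Col11a1 and -0.75 for Col24a1, so within fractions these genes did not follow Col1a1. Col27a1, also a gene of low level, did follow it (0.879). These r, too, rest on 6 libraries and are a description only.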

How the data were processed

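The 6 libraries were TruSeq libraries of 150 ng total RNA, per the labels' protocols. The authors deposited whole-number read counts of each gene, in a column for both strands and a column for either strand (per the file headers). Trim Galore 0.4.3, STAR 2.5.2b and the build GRCm38 are named, without their roles, in the submitters' processing notes. For the counting, no annotation release is named in the sources used here.

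The counts for both strands were used, since the strand columns were nearly equal (ratio 1.002 to 1.006 per library), so reads of overlapping antisense genes cannot be told apart. Of 49671 genes, 49412 matched GENCODE M21. Coordinates are 1-based. The fractions were compared with edgeR 4.0.16 in R 4.3.3 (robust quasi-likelihood fit, two-sided F test), with TMM scaling, the filterByExpr filter, no block and Benjamini-Hochberg adjustment over 15608 genes. The standard error was the absolute log2 fold change divided by the square root of F. The fits were checked on simulated counts. The labels do not say whether replicates came from separate animals, and if they did not, the p-values reflect technical spread alone. No 2 replicates agreed within sampling noise (their chi-square was 25.5 to 107 times its degrees of freedom). Libraries of equal number deviated from their fraction means together (correlations 0.403, 0.108 and 0.347). Those of unequal number had correlations from -0.392 to 0.028, so the margin was narrow for number 2. The numbers were taken as pairs on that ground, outside the main fit. No label states a pairing, so it rests on these same data. Added to the main fit, the block changed no call of a fibrillar collagen gene. Added to the length and GC offsets, it brought back the calls of Col3a1 and Col11a1.

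The alternatives were relative log expression, upper quartile, library size and fibroblast marker scaling, filtering at 1 CPM in 3 libraries or not at all, limma-voom (limma 3.58.1), DESeq2 1.42.0, no robust estimation, the replicate block, a single strand column, a stricter threshold (0.01), testing against 1.5-fold, offsets per library from splines (4 degrees of freedom each) of merged exon length and of the GC content of the longest transcript, and leaving out each library. The genes described were chosen by family membership, and they, the lists and the tests were chosen with earlier results of these data known. Genes named from the lists were, in each list, the gene up and the gene down with the smallest adjusted p, and genes like Col1a1 were the 5 with the highest r, of which 1 is not reported here. Named after their values were seen were the endothelial markers, Krt7, Krt8, Krt18, Krt19, Epcam, Cdh1, Sp1, Timp1, Timp2 and Timp3. At 0 counts, Ccl21a, Col9a1, Snorc, Cytl1, Ucma and Gp6 were named in the same way.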

Additional observations from a re-analysis of the deposited data

How the results depend on the processing

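Col1a1, Col5a1 and Col27a1 kept their direction and their call under all 22 alternatives, and no fibrillar collagen gene was called lower under any. The number of the 9 genes higher in GFP was 8 with edgeR and 3 when tested against a fold change of 1.5 (Col1a1, Col5a1 and Col27a1). With the replicate block it was 8, as without it. It ranged from 6 to 8 over the fits that left out a library and was 6 at a threshold of 0.01. Of all 15608 genes tested, 2049 were higher in the main fit, 578 at that threshold and 216 against a fold change of 1.5. The median log2 fold change of the 9 genes, 0.94 in the main fit, was 0.78 with library size scaling and 0.62 with fibroblast marker scaling. It was 0.62 with length and GC offsets and 0.63 with those offsets and the replicate block. The cause of the shift with the offsets was not tested. The log2 fold change of Col24a1 was -0.11 with fibroblast marker scaling. The difference in the log2 ratio of Col11a1 to Col5a1, near 0, was 0.025 and 0.0047 with the first and the second strand column, 0.025 with length and GC offsets (an alternative chosen after seeing the data), and from -0.34 to 0.19 without each library in turn. The other 4 ratios and the share of counts kept their direction in all alternatives run. The mean level over 6 libraries per kilobase of the longest transcript was 2919 CPM for Col1a2, 9824 for Col3a1, 197 for Col5a2, 0.70 for Col11a1 and 1.80 for Col27a1. Depth limits Col2a1, with at most 2 counts, and to a lesser degree Col11a1.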
